A study of Mus musculus with 56 samples.

Results

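Front paws of male DBA/1 mice were compared according to how much skeletal muscle RNA each whole-paw library held. Collagen-induced arthritis (CIA), an autoimmune joint inflammation, was induced by immunising mice against chicken type II collagen on days 1 and 21. From day 21 the immunised mice were injected 2 times a week for 5 weeks with anti IL-6 (clone MP5-20F3, 10 mg/kg), anti TNFa (clone XT3.11, 30 mg/kg), both antibodies (combination, 30 and 10 mg/kg) or an isotype control antibody (30 mg/kg). There were 13 mice in each of these groups and 4 mice with no CIA and no treatment, and paws were homogenised whole on day 91, after dosing had ended. The muscle score of a library was the mean log2(FPKM + 1) of Acta1, Ckm, Myh4, Mylpf and Tnnt3, genes of the contractile apparatus and energy supply of fast skeletal muscle. FPKM is the number of fragments per kilobase of transcript and per M fragments sequenced (M, mega). In each immunised group the 4 libraries with the highest score were taken as muscle-rich and the 4 with the lowest as muscle-poor, which gave 16 muscle-rich and 16 muscle-poor libraries, 32 of 52 immunised and of 56 in all. The classes were chosen by these values, so they carry no treatment of their own, and the difference between them in any gene is a description of the chosen libraries. The 20 libraries in between, 5 per group, chose nothing and served to test genes against the score.

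A front paw holds bone, cartilage, tendon, synovium, skin, nerve and the small muscles that move the digits, and a homogenate samples all of them at once. Skeletal muscle fibres are packed with contractile filaments and with mitochondria that supply ATP through the citric acid cycle, fatty acid oxidation and the respiratory chain, and they are supplied by myelinated motor axons. In an arthritic joint, synovial fibroblasts, macrophages and neutrophils release cytokines, chemokines and proteases, and osteoclasts resorb bone while matrix and new bone are laid down. RNA of a homogenate is shared out among all these sources, and in such bulk samples fewer cells of a type and less RNA per cell cannot be told apart.

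The scores of muscle-rich libraries ran from 9.71 to 12.07 and those of muscle-poor libraries from 6.72 to 9.27. The values on either side of the limits lay close together in some groups. In anti IL-6 the lowest muscle-rich score was 9.71 and the next library, not chosen, had 9.67, and the highest muscle-poor score was 8.28 beside 8.29. In anti TNFa these pairs were 11.02 and 10.28 at the upper limit and 8.35 and 8.87 at the lower. They were 10.79 and 10.64, and 9.27 and 9.69, in the combination group, and 11.05 and 10.91, and 9.13 and 9.26, in the isotype group. The libraries without CIA had scores from 9.40 to 11.46 and so lay among the muscle-rich and middle libraries.

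**Figure D1:**
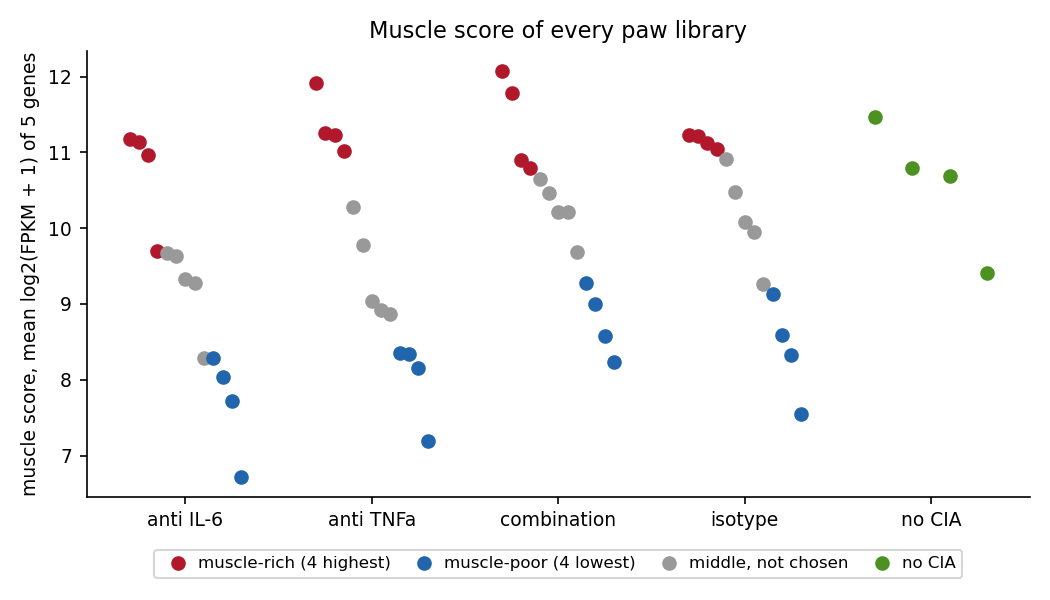
Muscle score (mean log2(FPKM + 1) of 5 genes) of each of the 56 libraries, in descending order within each group; colour gives the class. The 4 highest and 4 lowest libraries of each immunised group are the muscle-rich and muscle-poor classes, and anti IL-6 holds the muscle-rich library with the lowest score, 9.71.

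Acta1, skeletal alpha-actin, ran from 1693 to 11038 FPKM (median 6580) in muscle-rich libraries and from 375 to 1556 FPKM (median 743) in muscle-poor libraries, with a median of 5270 FPKM without CIA. The label was set beside 3 lists of muscle genes that leave out the score genes. Their values come from the libraries that muscle genes chose, so they describe the choice and are no independent check. Of 211 such genes tested, 202 were higher in muscle-rich libraries, 3 were lower and 6 were not called. Over all genes 15.6% were higher and 55.2% lower. The highest were Mettl21c, a muscle lysine methyltransferase, at a log2 difference of 3.69, and Mybpc2, fast myosin-binding protein C, at 3.62. The 3 lower genes were Pgm2, Sh3bgrl2 and Tpm3 (-0.49, -0.34 and -0.18), of which Tpm3, a tropomyosin, is also made outside muscle. Myh8, the perinatal myosin heavy chain, was not called, with medians of 0.759 FPKM in muscle-rich and 0.417 FPKM in muscle-poor libraries. The muscle lists were also summed with the score genes counted in. They then held 4.08% to 16.6% of a muscle-rich library's summed FPKM (median 10.7%). In a muscle-poor library they held 1.07% to 3.40% (median 2.11%). The classes did not overlap in this share, which is partly made of the genes that chose them.

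Depth, read from the steps of low FPKM values, was 42.3 to 53.6 M fragments in muscle-rich and 40.1 to 54.6 M in muscle-poor libraries, with no identical pair of libraries among the 56. The median log2 difference over all 14621 genes tested was -0.16, and -0.04 after median-of-ratios scaling, so differences below are to be read against the median for their scaling. The mature neutrophil score (mean log2(FPKM + 1) of 25 genes) moved with the classes, with a range of 1.51 to 4.55 (median 2.78) in muscle-rich, 2.57 to 4.67 (median 3.81) in muscle-poor and 1.51 to 1.78 in no CIA libraries. Libraries were also ordered by the index numbers in the titles and split into index runs. Mouse numbers mostly rose along this order, and a new run began where the mouse number dropped steeply. The runs were unevenly filled, with 3, 6, 5 and 2 muscle-rich and 4, 2, 4 and 6 muscle-poor libraries in runs 2 to 5. Whether a run is a batch is not stated. Both the neutrophil score and the index run entered further fits as covariates, given below. Whether either brought about a result was not tested. Some libraries stood apart. Anti IL-6 replicate 12, a muscle-rich library, had the lowest score and the highest neutrophil score of its class. Isotype replicate 13, a muscle-poor library, had the lowest values of its class for Mmp3, Il1b, Cxcl1 and Ctsk. Anti IL-6 replicate 13, a middle library, correlated least with the others (median r of 0.891 over libraries).

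With treatment as a covariate, limma on log2(FPKM + 1) put 2284 genes (15.6% of those tested) higher and 8074 (55.2%) lower in muscle-rich libraries at an adjusted p under 0.05. These counts describe the choice and test nothing. Off the muscle lists they were 2082 higher and 8071 lower. Median-of-ratios scaling gave 3397 higher (23.2%) and 4101 lower (28%), the neutrophil score as a covariate 1972 higher (13.5%) and 5415 lower (37%), the index run as a covariate 2280 higher (15.6%) and 7709 lower (52.7%), and scaling by the FPKM total outside the muscle lists 2821 and 5964. Groups without overlap, with all 16 muscle-rich libraries on one side of all 16 muscle-poor ones, were seen for 452 higher and 14 lower genes. In the 20 libraries not chosen, the slope of each gene on the muscle score was tested with limma over the same 14621 genes. A score unit is 1 doubling of the mean muscle gene level. There 797 genes (5.45%) rose with the score and 697 (4.77%) fell. Of those on no muscle list, 657 rose and 697 fell. Higher in the chosen libraries and rising in the others were 643 of them, lower and falling were 680, and 1 gene went opposite ways. The count of falling genes depended on the fit and on single libraries. Without anti IL-6 replicate 13 it was 49 (0.335% of those tested), and with the neutrophil score as a covariate 86 (0.588%). It was 8 (0.0547%) with the index run as a covariate and 5 with a score from 5 other muscle genes. The rising genes numbered 593 (4.06%), 550 (3.76%), 226 (1.55%) and 231 in these fits. The fit with the other score took the libraries that were middle by that score, so combination replicate 3 was not among them. It also kept the 5 genes of that score among the genes tested. On the lists described below, no gene fell in the fits with the neutrophil score or the index run, and 1, a lymphocyte gene, fell without anti IL-6 replicate 13. With the index run, rising genes were called on 4 of these lists, with 3 of oxidative phosphorylation, 6 of the citric acid cycle and fatty acid oxidation, 7 of the mitochondrial genome and 1 of smooth muscle. Other single libraries moved these counts as well. Without anti TNFa replicate 2 there were 1688 rising and 3065 falling genes. The rising genes numbered 501 without isotype replicate 1 and 483 without isotype replicate 7. The falling genes numbered 118 and 144 without these, 257 without anti IL-6 replicate 11, 320 without isotype replicate 5, 428 without anti IL-6 replicate 1, 426 without anti TNFa replicate 5, 407 without combination replicate 10 and 1190 without combination replicate 3.

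**Figure D2:**
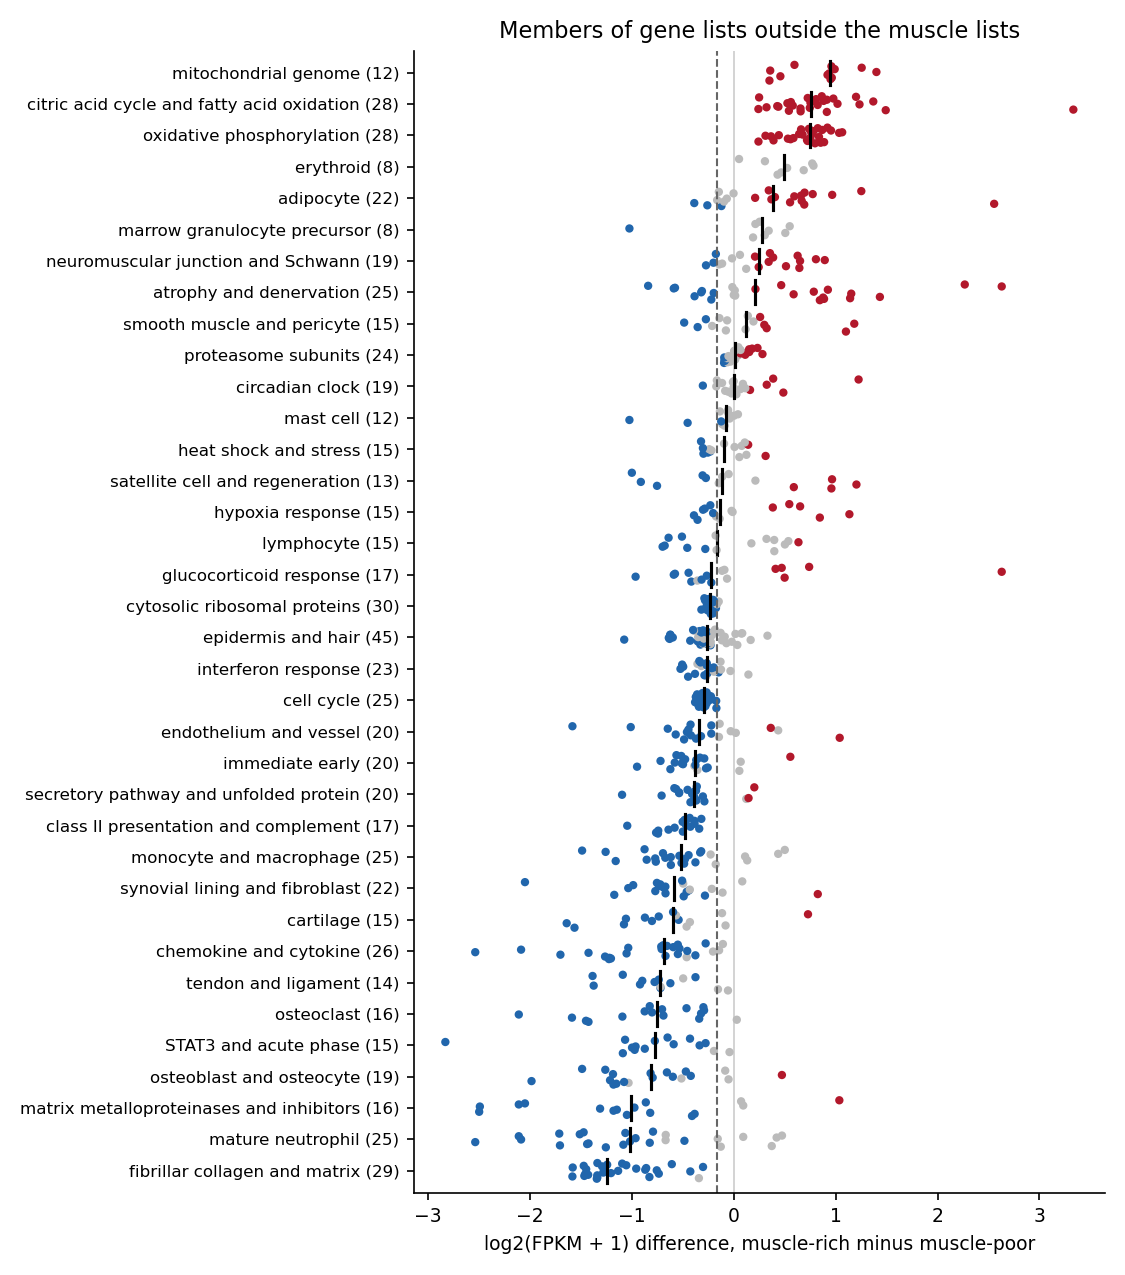
Log2(FPKM + 1) difference, muscle-rich minus muscle-poor, of each tested member of 36 lists; the bar is the list's median, the dashed line the median of all genes tested (-0.16), red and blue mark genes called higher and lower, grey those not called, and the number of members follows each name. Mitochondrial lists sit highest and the matrix list lowest.

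Genes of mitochondrial energy production were the largest group off the muscle lists on the muscle-rich side. All 28 tested genes of oxidative phosphorylation were higher, with differences of at least 0.24 and a median of 0.75 (15.6% of all genes were higher). Ndufs1, a core subunit of complex I (ENSMUSG00000025968.16, chromosome 1, 63143596 to 63176833, GRCm38), ran from 40.9 to 117 FPKM (median 66.7) in muscle-rich libraries, from 28.0 to 37.2 FPKM (median 32.8) in muscle-poor ones, and had medians of 43.0 FPKM in middle and 55.5 FPKM in no CIA libraries. Every muscle-rich library lay above every muscle-poor one, a difference of 1.03 ± 0.09 (SE). Sdha, the catalytic subunit of succinate dehydrogenase, had medians of 132 and 69.6 FPKM in muscle-rich and muscle-poor libraries, and its classes did not overlap either. In the libraries not chosen, 21 of the 28 rose with the score, against 5.45% of all genes. Ndufs1 rose by 0.37 ± 0.06 per score unit (limma adjusted p = 0.000682) and Sdha by 0.28 ± 0.06 (adjusted p = 0.00931). Both stayed called in all 20 fits that left out a library. With the index run as a covariate 3 of the 28 rose (1.55% of all genes), Ndufs1 among them and Sdha not. With the neutrophil score 13 rose (3.76% of all genes), and without anti IL-6 replicate 13 there were 15 (4.06% of all genes).

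The citric acid cycle and fatty acid oxidation list gave the same counts, with 28 of 28 higher (median 0.75) and 21 rising in the libraries not chosen. With the index run as a covariate 6 rose. Over all genes 15.6% were higher, 5.45% rose, and 1.55% rose with the index run. Cpt1b, the muscle form of carnitine palmitoyltransferase that admits long-chain fatty acids to mitochondria, ran from 9.40 to 80.7 FPKM (median 34.6) in muscle-rich and from 0.649 to 8.87 FPKM (median 2.74) in muscle-poor libraries. It had the largest difference of the genes ranked off the muscle lists, 3.33 ± 0.21, and rose by 1.21 ± 0.13 per score unit (adjusted p = 1.52e-05). Its gene lies on chromosome 15 (89416405 to 89425863, GRCm38). Idh3a, a subunit of isocitrate dehydrogenase, had medians of 86.9 FPKM in muscle-rich and 33.6 FPKM in muscle-poor libraries. It rose in the libraries not chosen by 0.66 ± 0.10 per score unit (adjusted p = 0.000412). Contractile genes differed more, with a list median of 2.21.

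Transcripts of the mitochondrial genome took 2.69% to 7.17% of summed FPKM in muscle-rich and 1.69% to 3.19% in muscle-poor libraries. All 12 that could be tested were higher (median 0.94), and 8 rose in the libraries not chosen, or 7 with the index run as a covariate. Over all genes 15.6% were higher, 5.45% rose, and 1.55% rose with the index run. mt-Nd2, a complex I subunit, ran from 1184 to 4579 FPKM in muscle-rich and from 610 to 1507 FPKM in muscle-poor libraries and rose by 0.85 ± 0.13 per score unit (adjusted p = 0.000563). The values of this genome were uneven: mt-Co1 averaged 7504 and 3753 FPKM in muscle-rich and muscle-poor libraries, whereas mt-Co2 averaged 2.96 and 1.87 FPKM and mt-Co3 reached 0.474 FPKM at most. The reason was not examined, and single values from this genome are uncertain.

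The 10 genes with the highest differences off the muscle lists and a mean of at least 5 FPKM were Cpt1b, Mylk4, Lrrc14b, Dupd1, Trim54, Pdk4, Abra, Ank1, Car3 and Cap2, from 3.33 to 2.52. Several of them are themselves known from muscle: Mylk4 is a myosin light chain kinase, Trim54 a ring-finger protein of the sarcomere, Abra an actin-binding activator of serum response factor signalling, Dupd1 a dual-specificity phosphatase and Ank1 an ankyrin with a small muscle isoform. Mylk4 had medians of 22.6 FPKM in muscle-rich and 1.09 FPKM in muscle-poor libraries, and Dupd1 14.5 and 0.999 FPKM without overlap. Of these 10, Cpt1b, Mylk4, Lrrc14b, Trim54 and Ank1 rose in the libraries not chosen in all 20 fits that left out a library, and all but Trim54 also with the index run as a covariate. Pdk4, the kinase that turns off pyruvate dehydrogenase, had medians of 83.3 and 10.6 FPKM in muscle-rich and muscle-poor libraries and 29.6 FPKM without CIA, but its slope of 0.62 ± 0.32 was not called (adjusted p = 0.21). The smallest slope p-values were those of Me3, mitochondrial malic enzyme, Plpp7, Rxrg, a retinoid X receptor, Fitm1, a lipid droplet protein of muscle, and Mtfp1, a mitochondrial fission protein. Me3 ran from 3.15 to 13.2 FPKM in muscle-rich and from 0.766 to 2.63 FPKM in muscle-poor libraries and rose by 0.64 ± 0.05 per score unit (adjusted p = 1.77e-06).

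**Figure D3:**
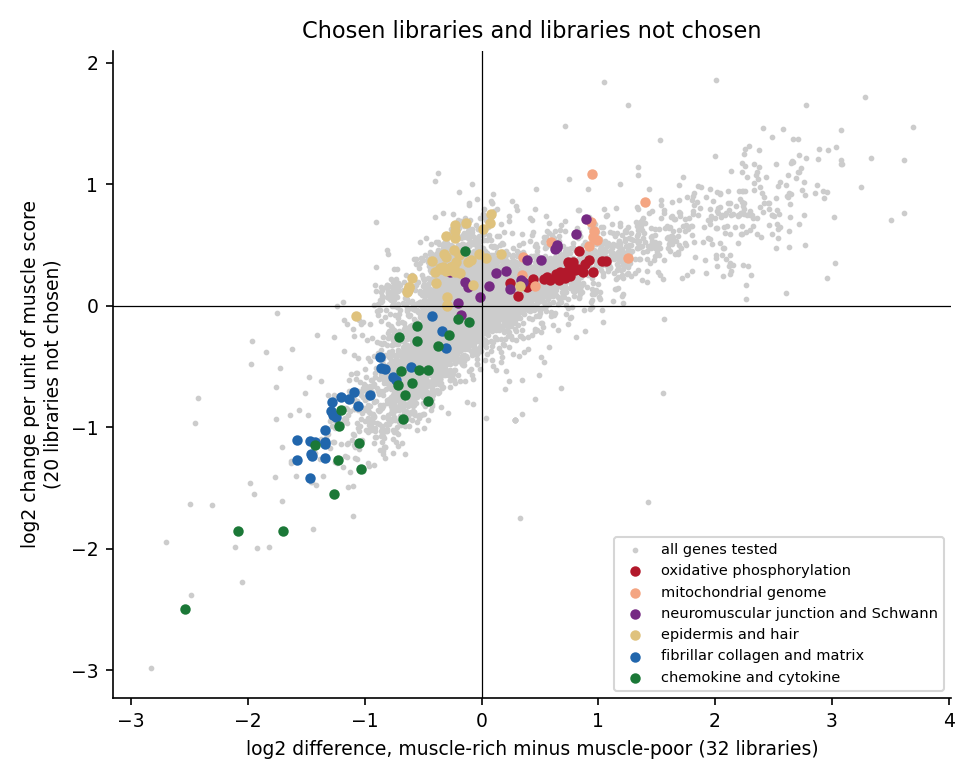
Each point is 1 of the 14621 genes tested: the log2 difference between muscle-rich and muscle-poor libraries on the x axis and the log2 change per unit of muscle score in the 20 libraries not chosen on the y axis; colours mark 6 lists. Mitochondrial and most Schwann genes lie up and right, matrix and cytokine genes down and left, and most epidermal genes left of 0 but above it.

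Genes of muscle wasting and of regeneration did not move as a block. Of 25 genes on the atrophy and denervation list 13 were higher and 8 lower, with a median of 0.21. Over all genes 15.6% were higher and 55.2% lower. Trim63, the ubiquitin ligase MuRF1, ran from 10.1 to 52.3 FPKM (median 29.9) in muscle-rich and from 1.71 to 12.8 FPKM (median 5.11) in muscle-poor libraries, and was 17.9 FPKM without CIA. Chrne, the adult subunit of the acetylcholine receptor of the endplate, had medians of 17.6 and 5.73 FPKM in muscle-rich and muscle-poor libraries and rose by 0.96 ± 0.21 per score unit (adjusted p = 0.00857). In the libraries not chosen Chrne, Foxo4, Klf15 and Bnip3 rose, and Mt1, Mt2 and Ctsl, metallothioneins and a lysosomal protease, fell. Over all genes 5.45% rose and 4.77% fell there. None of the 7 was called with the index run as a covariate, and Chrne, Bnip3 and the falling genes were not called without anti IL-6 replicate 13. Of the 13 satellite cell and regeneration genes 4 were higher and 5 lower, among them H19, a growth-related noncoding RNA, at 122 and 48.8 FPKM, and Vcam1, an adhesion molecule also made by inflamed vessels, at 5.50 and 12.5 FPKM (medians in muscle-rich and muscle-poor libraries). Pax7, the defining factor of satellite cells, reached 0.280 FPKM at most in muscle-rich and 0.0941 FPKM in muscle-poor libraries and was not tested.

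On the list of 19 genes of the neuromuscular junction and Schwann cells 11 were higher and 3 lower (15.6% and 55.2% of all genes), with a median of 0.25. The lower ones were Egr2, a transcription factor of myelination, L1cam, a neural adhesion molecule, and Scn7a, a sodium channel (-0.27, -0.20 and -0.18). Ncmap, a membrane protein of myelinating Schwann cells (ENSMUSG00000043924.16, chromosome 4, 135369576 to 135398227, GRCm38), ran from 5.61 to 17.5 FPKM (median 11.9) in muscle-rich and from 3.86 to 9.54 FPKM (median 6.13) in muscle-poor libraries, with 13.2 FPKM as the no CIA median. The classes overlapped, and the difference was 0.81 ± 0.12. In the libraries not chosen 7 of the 19 rose, against 5.45% of all genes. Among the 7 were Ncmap, by 0.59 ± 0.15 per score unit (limma adjusted p = 0.0202), Mbp, Pmp22, Prx and Drp2. None of the 7 was called without anti IL-6 replicate 13, none with the index run as a covariate and 1 with the neutrophil score. Ncmap in that library was 3.6 FPKM, the lowest of the middle libraries.

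Adipocyte genes were split. Of 22 genes 14 were higher and 3 lower (median 0.39), against 15.6% and 55.2% of all genes. Plin4, which coats lipid droplets, had medians of 15.4 and 6.77 FPKM in muscle-rich and muscle-poor libraries and 17.4 FPKM without CIA, a difference of 0.97 ± 0.14, and its lowest muscle-rich value, 3.98 FPKM, belonged to anti IL-6 replicate 12. Adipoq, the hormone adiponectin, averaged 18.9 and 11.2 FPKM in muscle-rich and muscle-poor libraries and Plin1 7.56 and 4.30 FPKM. Thrsp, a regulator of fat synthesis, had medians of 4.01 and 1.18 FPKM in muscle-rich and muscle-poor libraries. Fasn, fatty acid synthase, averaged 24.9 and 26.0 FPKM in muscle-rich and muscle-poor libraries and was not called. The 3 lower genes were Cebpa, Acaca and Acly, of which Acly, which makes acetyl-CoA for fat synthesis, averaged 32.0 and 38.5 FPKM in muscle-rich and muscle-poor libraries. Car3, carbonic anhydrase 3, had medians of 902 and 157 FPKM in muscle-rich and muscle-poor libraries and is abundant in slow muscle as well as in fat. All 22 slopes were positive and none was called, with an adjusted p of 0.0503 for Car3 and 0.0747 for Plin4.

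On the muscle-poor side the matrix genes stood out. Of 29 genes of fibrillar collagens and their matrix 28 were lower in muscle-rich libraries, against 55.2% of all genes, with a median of -1.24 against -0.16 over all genes. Col1a1, the main collagen chain of bone, tendon and scar (ENSMUSG00000001506.10, chromosome 11, 94936224 to 94953042, GRCm38), ran from 153 to 2566 FPKM (median 622) in muscle-rich and from 680 to 3246 FPKM (median 1978) in muscle-poor libraries, and its medians were 405 in middle and 220 in no CIA libraries. Muscle-poor libraries all had 680 FPKM or more, whereas muscle-rich libraries were spread over most of the range. Lum, the collagen-binding proteoglycan lumican, had medians of 113 and 385 FPKM in muscle-rich and muscle-poor libraries, and Postn, periostin, which is made by activated fibroblasts, 70.4 and 214 FPKM. With the neutrophil score as a covariate 23 of the 29 were lower (median -0.57), against 37% of all genes. No member was called in the libraries not chosen, where Col1a1 changed by -1.27 ± 0.53 per score unit (adjusted p = 0.119) and Postn by -1.42 ± 0.52 (adjusted p = 0.084).

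Genes of joint and bone tissue were counted against the 55.2% of all genes that were lower. Of the tendon genes 10 of 14 were lower, of the cartilage genes 9 of 15, of the osteoblast and osteocyte genes 14 of 19 and of the osteoclast genes 15 of 16, while Sox6, a cartilage factor, and Phospho1, a phosphatase of mineralising matrix, were higher. Ctsk, the collagen-degrading protease of osteoclasts, ran from 34.4 to 686 FPKM (median 137) in muscle-rich and from 226 to 671 FPKM (median 459) in muscle-poor libraries, and had 64.8 FPKM without CIA. Atp6v0d2, a proton pump subunit of osteoclasts, had medians of 2.04 and 9.25 FPKM in muscle-rich and muscle-poor libraries. Ibsp, bone sialoprotein, had 35.0 and 158 FPKM in muscle-rich and muscle-poor libraries, and Sp7, the osteoblast factor osterix, 5.01 and 15.0 FPKM. Col2a1, the collagen of cartilage, ran from 0.356 to 150 FPKM in muscle-rich and from 0.363 to 309 FPKM in muscle-poor libraries, so its classes shared nearly their whole range. Tnmd, tenomodulin of tendon, had medians of 26.6 and 65.9 FPKM in muscle-rich and muscle-poor libraries. With the neutrophil score as a covariate the lower genes numbered 3 of 14 for tendon, 2 of 15 for cartilage, 3 of 19 for osteoblasts and 8 of 16 for osteoclasts, against 37% of all genes. In the libraries not chosen 2 of the 16 osteoclast genes fell, against 4.77% of all genes. These 2 were Tnfrsf11a, the receptor RANK, and Clcn7, a chloride transporter, and neither fell without anti IL-6 replicate 13.

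The proteases that break down this matrix held 3 of the 10 lowest genes, which were Saa3, Sprr2a2, Cxcl5, Mmp13, Mmp3, Defb3, Cthrc1, Mmp9, Il1b and Timp1, from -2.83 to -2.05. Of 16 matrix metalloproteinases and inhibitors 13 were lower and 1 higher (median -1.01), where 55.2% of all genes were lower. Mmp13, collagenase 3, ran from 1.16 to 442 FPKM (median 27.5) in muscle-rich and from 58.7 to 343 FPKM (median 213) in muscle-poor libraries, a difference of -2.50 ± 0.57. Mmp3, stromelysin 1, ran from 7.81 to 998 FPKM (median 37.5) in muscle-rich and from 48.5 to 746 FPKM (median 258) in muscle-poor libraries, a difference of -2.49 ± 0.55, and its no CIA median was 7.97 FPKM. The highest muscle-rich value of both belonged to anti IL-6 replicate 12, and the lowest muscle-poor value of both to isotype replicate 13. Timp1, an inhibitor of these proteases, had medians of 35.6 and 220 FPKM in muscle-rich and muscle-poor libraries, while Timp4, a relative, was higher, by 1.04 ± 0.13. Slopes in the libraries not chosen were -1.63 ± 0.96 for Mmp13 (limma adjusted p = 0.261) and -2.38 ± 0.87 for Mmp3 (adjusted p = 0.0814). Of the 16 genes 1 was called there, upwards, where 5.45% of all genes rose. With the neutrophil score as a covariate 5 of the 16 were lower in muscle-rich libraries, against 37% of all genes.

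Mmp13 and Mmp3 lie on chromosome 9 and moved together, so the 120 bases before their starts are shown, along with those of Dupd1 from the muscle-rich side (RefSeq, GRCm38.p6). Capitals mark matches to TGANTCA, the letters of an AP-1 site (Fos and Jun dimers), or to TAAAAATA, the core of a MEF2 site, searched on both strands of the 250 bases before each start.
Mmp13, chr9:7272394-7272513, plus strand: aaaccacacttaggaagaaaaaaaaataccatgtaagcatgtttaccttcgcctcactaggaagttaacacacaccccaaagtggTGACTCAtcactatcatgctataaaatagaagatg
Mmp3, chr9:7445702-7445821, plus strand: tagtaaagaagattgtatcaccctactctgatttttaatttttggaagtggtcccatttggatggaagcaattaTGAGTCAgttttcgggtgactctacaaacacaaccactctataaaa
Dupd1, chr14:21714577-21714696, minus strand: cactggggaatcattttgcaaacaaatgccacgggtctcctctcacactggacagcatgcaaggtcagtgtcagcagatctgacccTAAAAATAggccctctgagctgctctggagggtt
The AP-1 letters begin 35 bases before the start of Mmp13 and 46 before that of Mmp3, and the MEF2 letters 34 before that of Dupd1. Of the 10 lowest genes 7 had a window in the table and 2 held the AP-1 letters, the same number as among the 6 of the 10 highest genes with a window (Dupd1 and Trim54). Of all 32851 windows 6.75% held the AP-1 letters and 2.45% the MEF2 letters. A match describes the letters of the window and is no measured site. Among the AP-1 genes themselves, Fos had medians of 11.8 and 24.7 FPKM and Junb 59.8 and 100 FPKM in muscle-rich and muscle-poor libraries. Of the 20 immediate early genes 15 were lower and 1 higher (median -0.38), where 55.2% of all genes were lower. Junb fell in the libraries not chosen, by 0.49 per score unit (adjusted p = 0.0202), in 17 of the 20 fits that left out a library, but not without anti IL-6 replicate 13 or with the index run or the neutrophil score as a covariate.

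**Figure D4:**
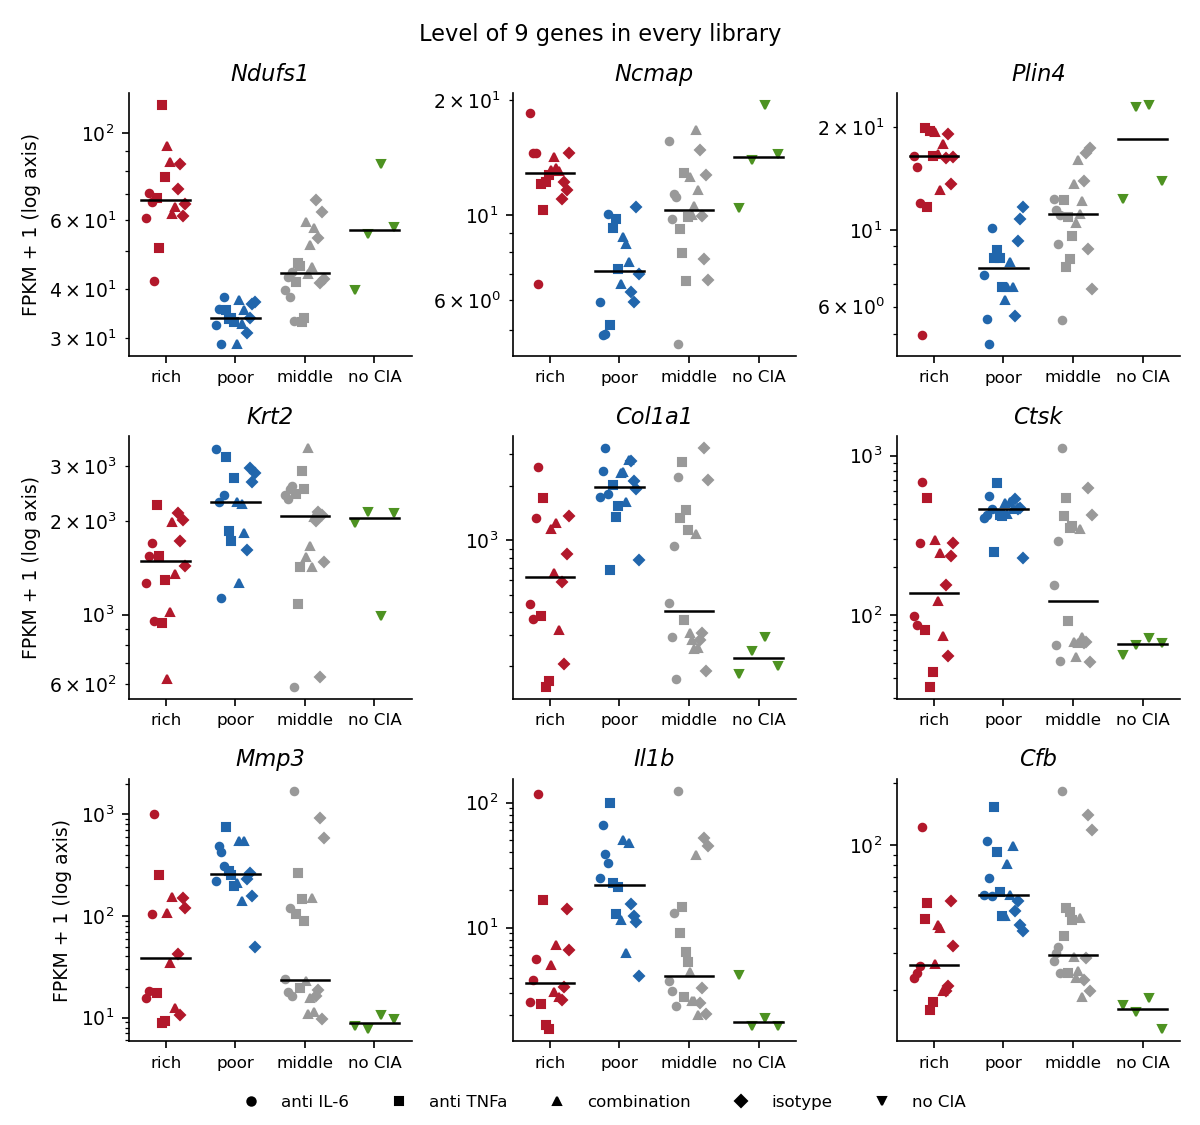
FPKM + 1 on a log axis of 9 genes in each library; columns are the 16 muscle-rich, 16 muscle-poor, 20 middle and 4 no CIA libraries, symbols give the treatment and bars the medians. Ndufs1 separates the classes, Ncmap, Plin4 and Krt2 overlap, and Col1a1, Ctsk, Mmp3, Il1b and Cfb are high in nearly all muscle-poor libraries and spread in muscle-rich and middle ones.

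Chemokines and cytokines, the signals that recruit and activate immune cells, were mostly lower in muscle-rich paws. Of 26 chemokines and cytokines 22 were lower (median -0.68), against 55.2% of all genes. Il1b, interleukin 1 beta (chromosome 2, 129364570 to 129371139, GRCm38), ran from 0.537 to 116 FPKM (median 2.60) in muscle-rich and from 3.12 to 97.8 FPKM (median 21.1) in muscle-poor libraries, with 0.777 FPKM without CIA. The top muscle-rich value came from anti IL-6 replicate 12, and the next was 15.7 FPKM. Cxcl5, a chemokine that draws neutrophils, had medians of 0.721 and 19.3 FPKM in muscle-rich and muscle-poor libraries, and Cxcl1, a chemokine of the same action, 1.75 and 13.5 FPKM. In the libraries not chosen 7 of the 26 fell, against 4.77% of all genes. The 7 were Cxcl1 (-1.85 ± 0.50 per score unit, limma adjusted p = 0.0292), Il6, Il11, Lif, Ccl7, Cxcl13 and Tgfb1. None of them was called without anti IL-6 replicate 13 or with the index run or the neutrophil score as a covariate. With that score as a covariate 5 of the 26 were lower between the classes (median -0.21), against 37% of all genes.

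The antibodies' targets and their receptors were all lower, where 55.2% of all genes were. Il6 ran from 0.0664 to 9.29 FPKM (median 0.277) in muscle-rich and from 0.124 to 15.8 FPKM (median 2.92) in muscle-poor libraries, and Tnf from 0.673 to 2.91 FPKM (median 1.29) in muscle-rich and from 1.36 to 6.12 FPKM (median 2.40) in muscle-poor libraries. Tnfrsf1a, the broadly expressed TNF receptor, had medians of 73.2 and 105 FPKM in muscle-rich and muscle-poor libraries and fell in the libraries not chosen by 0.31 per score unit (adjusted p = 0.0106), in 19 of 20 fits that left out a library. Tnfrsf1b, the TNF receptor of immune cells, had medians of 4.35 and 7.45 FPKM in muscle-rich and muscle-poor libraries. Il6ra, the binding chain of the IL-6 receptor, had 4.67 and 5.58 FPKM in muscle-rich and muscle-poor libraries, and Il6st, its signalling chain gp130, 27.1 and 35.4 FPKM. With median-of-ratios scaling 5 of the 6 were lower, against 28% of all genes, and with the neutrophil score 1, against 37%. Il6 fell by 1.34 per score unit (adjusted p = 0.0371), in 12 of 20 such fits. Neither Tnfrsf1a nor Il6 was called without anti IL-6 replicate 13 or with the index run or the neutrophil score as a covariate. Of 15 genes of STAT3 signalling and the acute phase 13 were lower (median -0.77), against 55.2% of all genes. Saa3, an acute phase protein made in inflamed tissue, had medians of 18.9 and 110 FPKM in muscle-rich and muscle-poor libraries, and Socs3, the feedback inhibitor of gp130 signalling, 14.8 and 36.3 FPKM. Of the 15, Socs3, Stat3, Il4ra and Serpina3n fell in the libraries not chosen, where 4.77% of all genes fell. None of these members fell without anti IL-6 replicate 13 or with either covariate.

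Of 25 neutrophil genes 17 were lower and none higher (median -1.02), and of 25 monocyte and macrophage genes 19 were lower (median -0.51). Over all genes 55.2% were lower. In the libraries not chosen 0 neutrophil genes were called and 3 macrophage genes fell, where 4.77% of all genes fell. None of the 3 was called without anti IL-6 replicate 13 or with the index run or the neutrophil score as a covariate. Ms4a7, a membrane protein of macrophages, had medians of 8.10 and 23.7 FPKM in muscle-rich and muscle-poor libraries, and Cd14, the endotoxin co-receptor, 14.3 and 34.4 FPKM. All 17 genes of class II presentation and complement were lower (median -0.48), led by Cfb, complement factor B, which ran from 15.0 to 121 FPKM (median 25.3) in muscle-rich and from 37.3 to 151 FPKM (median 56.6) in muscle-poor libraries. Cfb fell by 1.13 per score unit in the libraries not chosen (adjusted p = 0.0403), with 4 others of the 17 and in 10 of 20 fits that left out a library. None of the 5 was called without anti IL-6 replicate 13 or with either covariate. With the neutrophil score as a covariate 5 of 25 macrophage and 4 of 17 complement or class II genes were lower, against 37% of all genes. The interferon response was near the background, with 14 of 23 lower (median -0.27), 6 with median-of-ratios scaling and 0 with the neutrophil score. Of 15 lymphocyte genes 6 were lower, against 55.2% of all genes, and 1 was higher, and none was lower with the neutrophil score as a covariate. All 6 were T cell genes, among them Cd3g (2.85 and 5.24 FPKM as medians in muscle-rich and muscle-poor libraries) and Cd4 (0.803 and 2.26 FPKM), and the higher one was Ighm, an antibody heavy chain, by 0.64 ± 0.21. The highest lymphocyte score of all libraries, 3.15, was that of combination replicate 6, a muscle-rich library, against a class median of 1.39. Erythroid genes, a marker of blood and marrow, had 0 of 8 called, at differences from 0.05 to 0.78. With the index run as a covariate 5 of the 8 were higher, against 15.6% of all genes. Hbb-bs had medians of 301 and 140 FPKM in muscle-rich and muscle-poor libraries. Of 8 granulocyte precursor genes 1 was called, Hdc, which was lower. With the neutrophil score as a covariate 7 of these 8 were higher, against 13.5% of all genes. Of the 12 mast cell genes 3 were lower, against 55.2% of all genes.

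Vessels and fibroblasts were mixed. Over all genes 55.2% were lower and 15.6% higher. Of 20 endothelial genes 13 were lower and 2 higher, with Selp, the P-selectin of activated endothelium, at medians of 2.62 and 13.1 FPKM in muscle-rich and muscle-poor libraries, and Car4, a carbonic anhydrase of capillaries, higher at 3.15 and 0.778 FPKM. Of 22 synovial and fibroblast genes 16 were lower and 1 higher. Of these, Cdh11, the cadherin of synovial fibroblasts, had medians of 3.73 and 11.2 FPKM in muscle-rich and muscle-poor libraries. Clic5, which is also made in muscle, rose in the libraries not chosen while Thy1 and Il6 fell, and none of them was called without anti IL-6 replicate 13 or with either covariate. Of 15 smooth muscle and pericyte genes 5 were higher and 3 lower. Lmod1, a leiomodin that nucleates actin, had medians of 6.43 and 2.21 FPKM in muscle-rich and muscle-poor libraries and rose by 0.68 ± 0.09 per score unit (adjusted p = 9.83e-05), in all 20 fits that left out a library.

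Housekeeping and secretory genes showed how the scaling enters. Over all genes 55.2% were lower and 15.6% higher under FPKM, and 28% and 23.2% with median-of-ratios scaling. With the neutrophil score as a covariate 37% were lower. Of 30 cytosolic ribosomal protein genes 28 were lower (median -0.23), but 4 with median-of-ratios scaling. All 25 cell cycle genes were lower (median -0.30), 16 with that scaling and 8 with the neutrophil score as a covariate. The proteasome list had 8 higher and 4 lower of 24, and 19 higher and 0 lower after median-of-ratios scaling. The secretory pathway and unfolded protein list changed little in its counts, with 17 of 20 lower (median -0.39) under FPKM and 17 with median-of-ratios scaling, and 16 with the neutrophil score. Kdelr3, which returns escaped proteins to the endoplasmic reticulum, had medians of 15.1 FPKM in muscle-rich and 41.7 FPKM in muscle-poor libraries. Hspa5, the chaperone BiP, had 154 and 186 FPKM in muscle-rich and muscle-poor libraries. It fell in the libraries not chosen by 0.35 per score unit (limma adjusted p = 0.0228), together with 9 others of the 20. Over all genes 4.77% fell there. Without anti IL-6 replicate 13, or with either covariate, none of the 10 was called. Of 19 circadian clock genes 5 were higher and 1 lower. Of 17 glucocorticoid-responsive genes 5 were higher and 8 lower, of 15 heat shock genes 2 and 5, and of 15 hypoxia genes 5 and 6. The hypoxia genes that were higher included Hk2, a hexokinase, at medians of 22.3 and 9.46 FPKM in muscle-rich and muscle-poor libraries without overlap.

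Skin genes followed neither side clearly. Of 45 epidermal and hair genes 20 were lower and 0 higher (median -0.26), against 55.2% and 15.6% of all genes. After median-of-ratios scaling 2 were lower and 1 higher, against 28% and 23.2% of all genes. Krt2, a keratin of the upper epidermis, ran from 622 to 2247 FPKM (median 1486) in muscle-rich and from 1130.1 to 3403 FPKM (median 2291) in muscle-poor libraries. Krt16, a keratin of wounded and inflamed skin, had medians of 58.7 and 104 FPKM in muscle-rich and muscle-poor libraries. In the libraries not chosen 43 of the 45 slopes were positive, opposite to the class difference, and none was called. Anti IL-6 replicate 13 had the lowest muscle score of these libraries, 8.29. It also had their lowest epidermis and hair score, 5.90 against a median of 7.79. The signs of the slopes were not counted without this library. Of 9 sweat gland and secretory genes 2 were lower, against 55.2% of all genes. Ltf, lactoferrin, was not called, with medians of 4.38 and 2.96 FPKM in muscle-rich and muscle-poor libraries.

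The genes with the smallest p among those that fell in the libraries not chosen were Hpse, the enzyme heparanase, Plxnb2, a semaphorin receptor, Sgpl1, sphingosine phosphate lyase, Lrrk1, a kinase, and Arl4c, a small GTPase. Their differences were small and even. Hpse ran from 3.56 to 7.18 FPKM (median 5.09) in muscle-rich and from 4.78 to 13.3 FPKM (median 6.80) in muscle-poor libraries, and fell by 0.39 per score unit (adjusted p = 0.00114). Lrrk1 had medians of 5.07 and 7.03 FPKM in muscle-rich and muscle-poor libraries and fell by 0.25 (adjusted p = 0.00191). All 5 stayed called in the 20 fits that left out a library, but Plxnb2, Lrrk1 and Arl4c were not called with the index run as a covariate. None of the 5 was called with a score from 5 other muscle genes, which also chose its own middle libraries.

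Whether the class difference itself varied with the antibody received was examined as an interaction over the 32 libraries. The muscle score chose these libraries, with gaps that differ between treatments, so the result describes the chosen libraries. No gene was called: limma gave 0 calls among the 14621 (0%). Before adjustment 783 had a p below 0.05, and 2 genes were called when the filter on low values was dropped. Oxidative phosphorylation differed by medians of 0.65, 0.89, 0.75 and 0.67 in anti IL-6, anti TNFa, combination and isotype. In the same order of treatments the fibrillar matrix differed by -1.13, -1.25, -1.34 and -1.03. The mature neutrophil list varied more, at -0.89, -1.82, -1.01 and -0.19, and chemokines and cytokines stood at -0.56, -1.14, -0.72 and -0.35. Mean scores of muscle-rich and muscle-poor libraries were 10.75 and 7.69 in anti IL-6 and 11.36 and 8.01 in anti TNFa, the widest gap. They were 11.39 and 8.77 in combination, the narrowest gap, and 11.15 and 8.39 in isotype. The part of the score gap in these differences was not tested. For Saa3 the differences, in that order, were -1.78, -4.51, -3.56 and -1.47. The genes with the smallest interaction p were Sec14l1, Pglyrp1, Rbm28, Strada and Ercc4. Pglyrp1, a peptidoglycan-binding protein of neutrophils and skin, differed in that order by 0.74, -1.36, 0.11 and 0.70, and was not called.

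**Figure D5:**
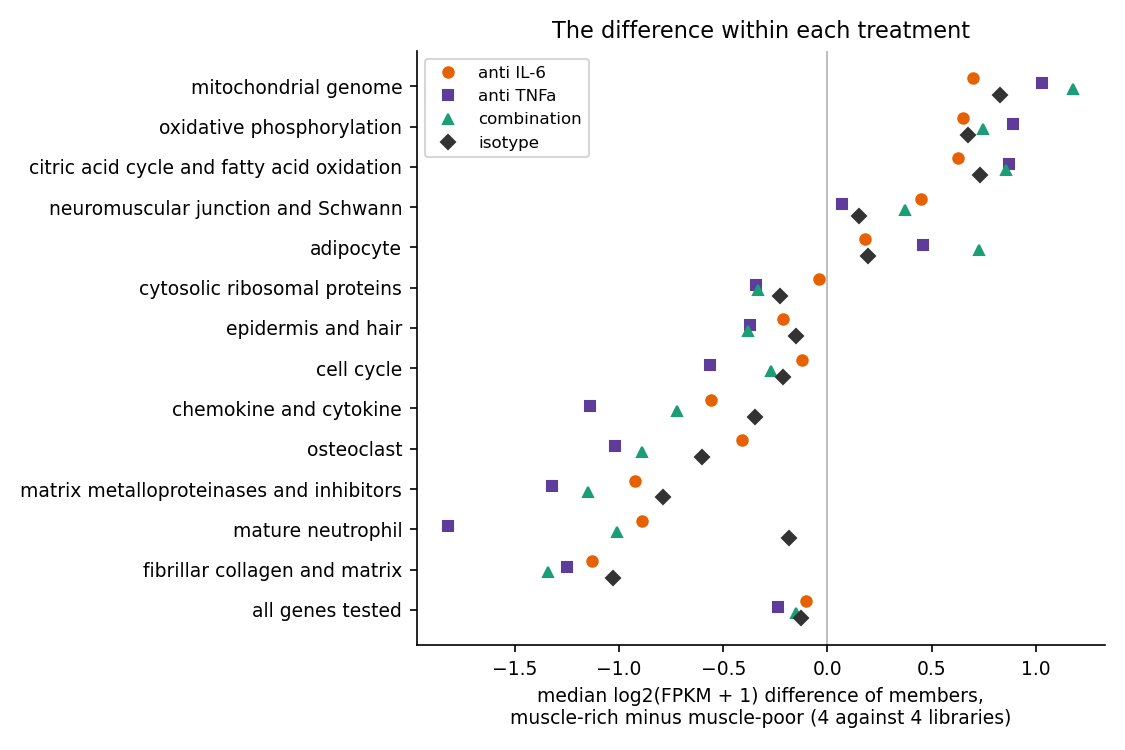
Median log2(FPKM + 1) difference, muscle-rich minus muscle-poor, of the members of 13 lists and of all genes tested, for each of 4 treatments (4 against 4 libraries). Mitochondrial lists lie right of 0 and matrix, protease and neutrophil lists left of it in every treatment, with neutrophil genes from -1.82 in anti TNFa to -0.19 in isotype.

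Levels in paws without CIA were set beside both classes. The fibrillar matrix score had medians of 5.78 in muscle-rich, 7.23 in muscle-poor and 5.18 in no CIA libraries. The chemokine and cytokine score had medians of 1.93 in muscle-rich, 2.95 in muscle-poor and 1.58 in no CIA libraries. For the osteoclast score these were 2.55 in muscle-rich, 3.42 in muscle-poor and 2.23 in no CIA libraries, and for the oxidative phosphorylation score 7.75 in muscle-rich, 7.03 in muscle-poor and 7.62 in no CIA libraries. These levels are set side by side and were not tested.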

How the data were processed

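Front paw RNA of 56 mice was sequenced in pairs of reads from TruSeq Stranded mRNA libraries, per the labels' protocols. The submitters' processing notes name DESeq2. Aligner, build, annotation and strand setting: not given in the sources used here. So reads of overlapping, antisense or near-identical genes may be shared. The authors deposited 1 FPKM value per feature and library, a unit read from the values; 52244 features are Ensembl genes and 1187 hairpins. Symbols were found for 52207 genes, and 51027 identifiers matched GENCODE M21 with their version, which gave coordinates.

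Depth came from low FPKM values of 11350 single-exon genes of at least 400 bases, of which 77.0% to 83.6% per library were whole multiples within 0.05 of a step, too few to rebuild counts. Features with a mean of at least 1 FPKM in either class were tested with limma 3.58.1 (R 4.3.3, trended, robust) on log2(FPKM + 1), which understates changes of low genes, with treatment as covariate, 27 residual degrees of freedom between classes and 15 for slopes. P-values were adjusted by Benjamini-Hochberg over 14621 genes, threshold 0.05. The 5 score genes were left out. On simulated data with independent noise and few changed genes, the class fit recovered 83% and 99% of changes of 0.5 and 1. The slope fit recovered 59% and 92% of these, and the interaction test 74% and 95% of changes of 1 and 2 in isotype alone. In the data most genes were called between the classes, so these rates are no measure of power there. Members of 3 muscle and 38 other lists are counted without tests. Genes named are each list's 3 largest differences, the 10 highest and 10 lowest off the muscle lists, the antibody targets and the 5 smallest p of each test; others on the lists were named after their values were seen. Some genes that these rules name are not reported here. The classes, lists and rules were chosen with earlier results of these data known. Each library is taken as 1 mouse, as the titles number them. Alternatives were scalings, pseudocounts of 0.1 and 10, no filter, other class sizes, another score, covariates and leaving out libraries. Python 3.11.15 with pandas 2.3.3 and matplotlib 3.10.9 prepared tables and plots.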

Additional observations from a re-analysis of the deposited data

Results flagged for a closer look

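Of 90 sets of 4 libraries of a class within a treatment, 3 held a library far from its 3 companions, where about 1 in 20 sets is expected to by chance. Among the muscle-rich anti IL-6 libraries, replicate 12 had a muscle score of 9.71, and the others lay between 11.0 and 11.2. This score chose the libraries, so the chance rate does not hold for it. Among the muscle-poor anti IL-6 libraries, 1 had an oxidative phosphorylation score of 7.08 with the others at 6.91 to 6.93, and 1 had an adipocyte score of 4.45 with the others at 3.87 to 3.96.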

How the results depend on the processing

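Between the classes, genes higher numbered 1972 to 3397 over the alternatives, within 1.5 times of 2284, and genes lower came to 4101 with median-of-ratios scaling; leaving out each of the 32 libraries gave 2240 to 2336 higher and 7678 to 8201 lower. Of 134 named genes, the neutrophil score as a covariate ended 43 calls and turned Lcn2 to 0.384, and median-of-ratios scaling turned Strada to 0.00603 and Ercc4 to 0.0218; the cause was not tested. In the 20 libraries not chosen, where fewer libraries enter, genes that rose came to 231 with a score from 5 other muscle genes and 226 with the index run as a covariate. The fit with the other score took the libraries that were middle by that score, so its libraries were not all the same. Genes that fell came to 351 with median-of-ratios scaling, 244 with non-muscle total scaling, 259 with no filter, 5 with the other score, 8 with the index run, 86 with the neutrophil score, 1493 with the 4 no CIA libraries added and 49 without the least correlated library; leaving out each library gave 483 to 1688 that rose and 49 to 3065 that fell. Of the 44 named genes with a called slope, 26 lost the call with the index run and 29 with the other score. The interaction test gave 2 genes with no filter and 0 in every fit that left out 1 library. No paired analysis was possible because the replicate numbers only count libraries as deposited and tie no mouse to another. Leaving out the 2 least correlated of the 32 libraries, or the least correlated of the 20, was chosen after the data were seen. Depth was similar in both classes, and FPKM without counts gives no counting error for low genes such as Il6 and Tnf.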
